A study of Mus musculus with 10 samples.

Results

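Transcripts of 7 genes that act downstream of the transcription factor STAT5 were followed in mast cells: the kinase genes Pim1, Pim2 and Pim3, and Cish, Socs1, Socs2 and Socs3, which encode inhibitors of cytokine signalling. They were chosen by name, with earlier results of these data known, and found by their Ensembl identifiers, 7 of the 49671 genes counted. All 7 passed the filter on low counts, as did 11247 genes in all. The cells were bone marrow-derived cultured mast cells (BMMCs), which are grown out of marrow in interleukin 3 (IL-3), here from wild type C57BL/6 mice with a labelled age of 6 to 8 weeks. After 6 to 8 weeks in IL-3 they formed 6 groups with 10 libraries: IL-3 alone (n = 2), 72 h of 100 ng/mL stem cell factor (SCF), which activates the receptor KIT (n = 2), SCF with 1 ng/mL transforming growth factor beta (TGF-β, written TGF-b in the labels) for 72 h (n = 2), SCF with 10 ng/mL TGF-β for 72 h (n = 2), and 72 h of TGF-β without added SCF (1 library at 1 ng/mL, 1 at 10 ng/mL). The growth protocol states an IL-3 dose of 5 ng/mL, whereas the source of every sample states 10 ng/mL. The labels do not say whether it stayed on during stimulation, which SCF dose the combinations had, or how long the IL-3 group was kept. Libraries are numbered as in the labels, where TGF-β alone has library 2 at 1 ng/mL and library 1 at 10 ng/mL. Dose and library number therefore cannot be told apart in TGF-β alone. No label ties the libraries of a group to different cultures, so p-values reflect the spread of these libraries only, which may be technical.

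IL-3 binds a receptor with the common beta chain, which activates the kinase JAK2, and JAK2 phosphorylates STAT5 so that it enters the nucleus and turns on its targets. The PIM kinases are serine/threonine kinases that are active once made, so that their amount is set largely by transcription and turnover, and they promote survival, protein synthesis and growth of blood cells. CIS (encoded by Cish) and the SOCS proteins are induced by the same cytokines and act as brakes: CIS binds activated cytokine receptors, SOCS1 and SOCS3 block JAK kinases, and SOCS2 is best known as a brake on growth hormone signalling. STAT5 is required for mast cell development and survival, KIT is itself a tyrosine kinase, and TGF-β acts through receptor kinases and SMAD transcription factors.

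The 7 genes are protein coding and lie, in GRCm38 with GENCODE vM21, on chromosomes 17 (Pim1, 29490753 to 29496112, + strand), X (Pim2, 7878262 to 7883432, +), 15 (Pim3, 88862186 to 88865726, +), 9 (Cish, 107296026 to 107302784, +), 16 (Socs1, 10782240 to 10785536, −), 10 (Socs2, 95385362 to 95417180, −) and 11 (Socs3, 117966079 to 117970047, −). Cish overlaps the antisense gene Gm17041, which had 204 to 525 counts per library, and the pseudogene Gm17040, which had 32 to 78. Pim1 overlaps the antisense gene Gm26885, with 11 to 52 counts. No strand setting is given in the sources used here, so reads of such overlapping pairs cannot be told apart.

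Promoter sequences from RefSeq (GRCm38.p6, 250 bases before to 50 after the start site) were matched for 6 of the 7 genes. They were searched on both strands for the STAT5 type motif TTCNNNGAA, for the same motif with 1 more base between TTC and GAA, and for the SMAD motif CAGACA. TTCNNNGAA occurred in 8.30% of 32851 promoters of 300 bases, the wider motif in 6.95% and CAGACA in 21.0%. The Cish promoter held 2 matches to TTCNNNGAA, TTCCTGGAA at bases 1 to 9 and TTCTTGGAA at bases 12 to 20 after the start, and 0.457% of promoters held at least that number. The Socs3 promoter held 1, TTCTTAGAA, at bases -154 to -146. Neither held the other motifs, and none of the 3 motifs was in these windows of Pim1 (2 promoters), Pim2, Pim3 and Socs1. A match is a description of the letters and not evidence of binding. The promoters of Cish, whose level varied least, Socs3, whose level rose with SCF and TGF-β, and Pim2, whose level fell most, are shown 5′ to 3′ from 250 bases before to 30 bases after the start (chr9:107296409-107296688, + strand, chr11:117969337-117969616, − strand, and chrX:7878056-7878335, + strand). Capitals mark TTCNNNGAA.
Cish: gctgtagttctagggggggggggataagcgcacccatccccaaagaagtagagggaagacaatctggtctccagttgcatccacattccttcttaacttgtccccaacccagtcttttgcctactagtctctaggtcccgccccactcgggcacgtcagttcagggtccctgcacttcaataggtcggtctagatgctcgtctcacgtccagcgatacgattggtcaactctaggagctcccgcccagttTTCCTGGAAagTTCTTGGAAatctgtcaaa
Socs3: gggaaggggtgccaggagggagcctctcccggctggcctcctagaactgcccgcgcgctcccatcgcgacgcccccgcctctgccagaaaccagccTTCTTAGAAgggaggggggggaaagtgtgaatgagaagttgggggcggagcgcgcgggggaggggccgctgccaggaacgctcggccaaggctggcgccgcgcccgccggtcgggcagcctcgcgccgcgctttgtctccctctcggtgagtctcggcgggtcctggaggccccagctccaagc
Pim2: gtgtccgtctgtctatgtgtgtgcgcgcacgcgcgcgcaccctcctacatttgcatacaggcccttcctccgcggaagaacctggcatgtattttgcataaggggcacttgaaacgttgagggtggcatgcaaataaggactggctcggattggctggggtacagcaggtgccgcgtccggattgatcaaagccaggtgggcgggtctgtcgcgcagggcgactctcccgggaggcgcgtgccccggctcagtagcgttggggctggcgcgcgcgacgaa

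Counts assigned to genes ran from 1237382 to 2323916 per library (median 1708116). Levels are given as CPM, counts scaled to the size of the library by TMM, and 3 counts corresponded to 1.26 to 2.55 CPM. The marker genes fitted the mast cell label: all 11 mast cell markers were detected, with a summed level of 56900 to 98500 CPM. Among markers of other cells, Itga2b, on the platelet list, stood at 1320 to 1840 CPM and Cd200r3, on the basophil list, at 431 to 680 CPM, both also known in mast cells. The neutrophil genes Mpo, S100a8, S100a9 and Ltf, the eosinophil genes Epx and Prg2, the lymphocyte genes Cd3e and Cd4 and the macrophage gene C1qb were at 0 in every library. Other markers were detected at low levels. The basophil genes Mcpt8 and Prss34 stood at 0.518 to 25 CPM and 1.09 to 17.9 CPM. The eosinophil gene Siglecf reached 10.1 CPM, the lymphocyte gene Ncr1 11.4 CPM and the erythroid gene Hbb-bt 11.8 CPM. The macrophage genes Csf1r, Adgre1 and Lyz2 stood at 7.02 to 14.5 CPM, 1.55 to 8.9 CPM and 1.09 to 20.2 CPM. The 8 lymphocyte markers summed to 0 to 0.518 CPM in IL-3 and 0.848 and 1.55 CPM with 1 and 10 ng/mL TGF-β alone. That sum was 3 to 7.56 CPM in SCF and 5.05 to 12.5 CPM with SCF and TGF-β. The 7 macrophage markers summed to 26.7 to 36.3 CPM in IL-3, 24.6 and 20.2 CPM with 1 and 10 ng/mL TGF-β alone, 24.6 to 31.5 CPM in SCF and 12.2 to 26.1 CPM with SCF and TGF-β. Like the PIM kinase levels, the macrophage sum was lower with both factors than in IL-3. The part of the macrophage and lymphocyte sums in the results was not tested. In bulk libraries, fewer cells of a type and less RNA per cell cannot be told apart.

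Pim2, an X-linked kinase gene known for its role in survival without growth factors, had the widest range of the 7. It stood at 88.6 and 118 CPM in the IL-3 libraries, 46.7 and 43.5 CPM with 1 and 10 ng/mL TGF-β alone, 29.0 and 13.2 CPM with SCF, 6.74 and 2.97 CPM with SCF plus 1 ng/mL TGF-β, and 2.68 and 4.34 CPM with SCF and 10 ng/mL. The libraries fell into an order without overlap between treatments: IL-3, then TGF-β alone, then SCF, then SCF with TGF-β, whose 2 doses overlapped. With SCF and TGF-β (both doses together) Pim2 fell by 4.59 ± 0.29 on the log2 scale against IL-3, a 24.1-fold lower level (95% interval -5.21 to -3.97, edgeR adjusted p = 1.3e-08). The lowest values rested on few reads, namely 16, 5, 6 and 8 counts in the 4 libraries with both factors. For 5 counts the exact 95% Poisson interval is 1.62 to 11.7, and such intervals cover counting error only.

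Pim1, the kinase first found as a site of retroviral insertion in lymphomas, stood at 149 and 155 CPM in IL-3, 132 and 104 CPM with 1 and 10 ng/mL TGF-β alone, 104 and 69.96 CPM with SCF, 64.9 and 44.5 CPM with SCF plus 1 ng/mL TGF-β, and 53.2 and 44.0 CPM with SCF and 10 ng/mL. The 2 IL-3 libraries were above all others and the 4 libraries with both factors below all others. Pim1 fell by 1.54 ± 0.17 on the log2 scale with both factors against IL-3 (2.92-fold, adjusted p = 5.44e-06). Pim3, the third family member, stood at 42.5 and 59.0 CPM in IL-3, 39.9 and 28.8 CPM with TGF-β alone, 27.0 and 25.2 CPM with SCF, 20.6 and 30.3 CPM with SCF and 1 ng/mL, and 21.0 and 17.4 CPM with SCF and 10 ng/mL. Its IL-3 libraries were also the highest, but the libraries of SCF alone and of SCF with 1 ng/mL overlapped. Pim3 fell by 1.19 ± 0.21 with both factors (2.28-fold, adjusted p = 0.000578). These 3 falls of PIM genes passed the test when any 1 library was left out.

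Cish, usually among the most direct readouts of STAT5 activity, stayed within a narrow band. It stood at 604 and 738 CPM in IL-3, 647 and 617 CPM with TGF-β alone, 584 and 499 CPM with SCF, 634 and 569.8 CPM with SCF plus 1 ng/mL TGF-β, and 700.2 and 608 CPM with SCF and 10 ng/mL. The IL-3 libraries overlapped those of every group with TGF-β, and only the SCF libraries lay wholly below IL-3. Cish passed the test in none of 8 comparisons by edgeR. Its difference between both factors and IL-3 was -0.10 ± 0.12 on the log2 scale, with a 95% interval of -0.36 to 0.17 (adjusted p = 0.635), and 0.05 without IL-3 library 2. Its difference between SCF and IL-3 was -0.31 ± 0.14 (-0.61 to -0.004, adjusted p = 0.208).

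Socs1, the inhibitor that binds JAK kinases directly, stood at 147 and 154 CPM in IL-3, 91.6 and 66.1 CPM with 1 and 10 ng/mL TGF-β alone, 129 and 95.2 CPM with SCF, 69.9 and 53.4 CPM with SCF and 1 ng/mL, and 59.4 and 48.3 CPM with SCF and 10 ng/mL. Libraries with TGF-β lay below those without it, whether or not SCF was present. Socs1 fell by 1.38 ± 0.16 with both factors against IL-3 (2.59-fold, adjusted p = 7.31e-06), also when any 1 library was left out. Socs2 stood at 56.5 and 75.1 CPM in IL-3, 45.0 and 36.5 CPM with TGF-β alone, 46.1 and 51.7 CPM with SCF, 37.5 and 37.98 CPM with SCF and 1 ng/mL, and 34.0 and 38.6 CPM with SCF and 10 ng/mL. The 2 IL-3 libraries were the highest of the 10. Socs2 fell by 0.82 ± 0.17 with both factors (1.77-fold, adjusted p = 0.00223), but without IL-3 library 2 the fall was 0.61 and adjusted p = 0.0724.

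Socs3, which limits signalling by receptors of the interleukin 6 family and is itself a target of STAT3, was the 1 gene of the 7 that rose. It stood at 39.9 and 37.9 CPM in IL-3, 27.2 and 31.9 CPM with TGF-β alone, 60.1 and 35.3 CPM with SCF, 74.1 and 49.9 CPM with SCF and 1 ng/mL, and 76.0 and 63.5 CPM with SCF and 10 ng/mL. The 4 libraries with both factors were above IL-3 and above TGF-β alone, while the SCF libraries lay on either side of IL-3. Socs3 rose by 0.76 ± 0.22 with both factors against IL-3 (1.7-fold, adjusted p = 0.02). That call was lost in DESeq2 (adjusted p = 0.0899) and without IL-3 library 1 (0.105), IL-3 library 2 (0.143), library 1 of SCF with 1 ng/mL (0.0658) or library 1 of SCF with 10 ng/mL (0.0559). Library 1 exceeded library 2 for Socs3 by 0.76 with SCF, 0.57 with SCF and 1 ng/mL and 0.26 with SCF and 10 ng/mL, on the log2 scale, against 0.07 in IL-3. This was not particular to Socs3: 6 of the 7 genes were higher in library 1 with SCF, and 5 with SCF and either dose. The medians of the 7 were 0.438, 0.385 and 0.256, against -0.290 in IL-3. Immediate early genes, which respond quickly to stimuli, had medians of 0.74, 0.73 and 0.81 for the same differences, against 0.38 in IL-3. The part of this in the values of the 7 genes was not tested.

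**Figure D1:**
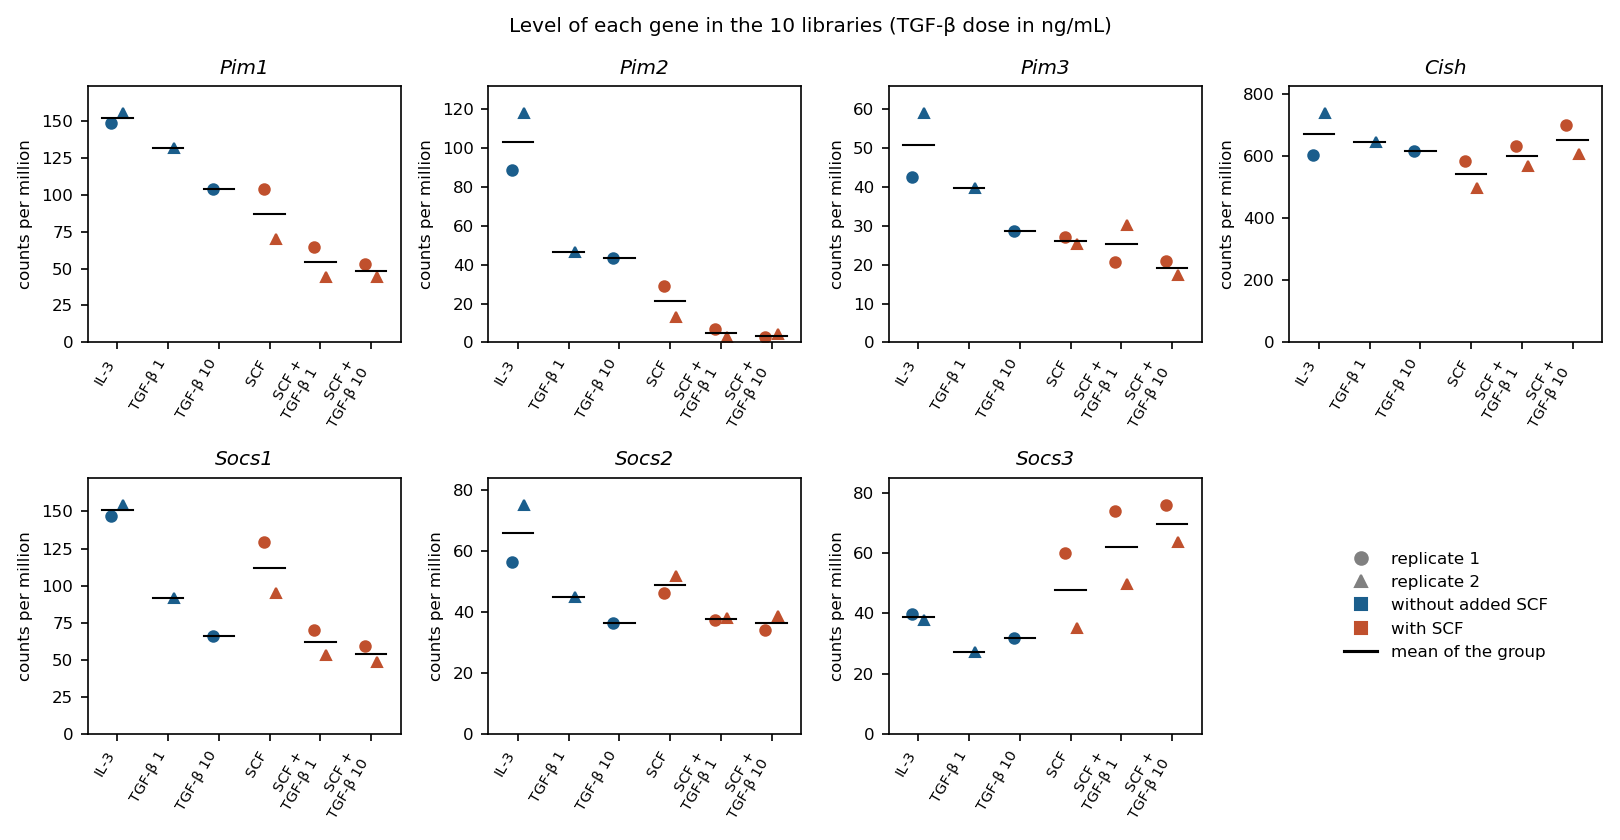
Level in CPM of each of the 7 genes in the 10 libraries, by group, with the dose of TGF-β in ng/mL. Points are libraries and horizontal lines are group means (TGF-β alone has 1 library per dose); Pim2 runs from 118 CPM in IL-3 to 2.68 CPM with SCF and 10 ng/mL, while Cish lies between 499 and 738 CPM throughout.

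Levels of different genes were compared per kilobase of exon in the annotation. That length joins all annotated exons (9531 bases for Socs2, 6419 for Cish, 2427 to 3362 for the others), so the order depends on this choice. Before this scaling Socs2 (65.8 CPM) lay above Socs3 (38.9 CPM) in IL-3. In IL-3 the order was Cish (104.5 ± 14.8 CPM per kb, SD, n = 2), Socs1 (51.9 ± 1.76), Pim1 (45.2 ± 1.34), Pim2 (36.9 ± 7.41), Pim3 (20.9 ± 4.79), Socs3 (13.5 ± 0.491) and Socs2 (6.90 ± 1.38). Of these neighbours, the mean ± SD bands overlapped for Pim1 and Pim2. With SCF and 10 ng/mL TGF-β the order was Cish (102 ± 10.2 CPM per kb), Socs3 (24.1 ± 3.04), Socs1 (18.5 ± 2.70), Pim1 (14.5 ± 1.93), Pim3 (7.91 ± 1.06), Socs2 (3.80 ± 0.341) and Pim2 (1.26 ± 0.421). Here the bands overlapped for Socs3 and Socs1 and for Socs1 and Pim1. Pim2 thus moved from the fourth place to the last, and Socs3 from the sixth to the second. Cish kept the highest level per kb in both.

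With both factors against IL-3, 5 of the 7 genes fell (Pim1, Pim2, Pim3, Socs1 and Socs2) and 1 rose (Socs3). Among all 11247 genes 22.2% passed the same test, edgeR's quasi-likelihood test with Benjamini-Hochberg adjusted p under 0.05, of which 11.2% were lower and 11.0% higher. The median difference of the 7 was -1.19 on the log2 scale, beside -0.02 over all genes. Since the 7 were chosen with earlier results of these data known, these shares describe them and are no test of the set.

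SCF against IL-3 compares cells given SCF for 72 h with cells in IL-3, without TGF-β. The labels do not say whether IL-3 stayed on or how long the IL-3 group was kept. In every comparison with IL-3, added factors, less IL-3 and time in culture therefore cannot be told apart. All 3 PIM genes fell and none of the 4 inhibitor genes passed the test, so 3 of 7 were lower and 0 higher, beside 3.46% and 5.71% of all genes (9.17% in either direction). Pim2 fell by 2.24 ± 0.29 on the log2 scale (4.72-fold, adjusted p = 0.00016) and kept the call without any 1 library. Pim1 was 1.73-fold lower at -0.79 ± 0.20 (adjusted p = 0.0204), and Pim3 was 1.92-fold lower at -0.94 ± 0.25 (adjusted p = 0.0277). Pim1 lost its call without IL-3 library 1 (adjusted p = 0.0655), IL-3 library 2 (0.136) or SCF library 2 (-0.54, 0.226). Pim3 lost it without IL-3 library 2 (0.253), SCF library 1 (0.0839) or SCF library 2 (0.16) and in DESeq2 (0.122). Without IL-3 library 2, or without SCF library 2, 1 gene was called. Socs1 (-0.42 ± 0.18, adjusted p = 0.172) and Socs2 (-0.42 ± 0.20, adjusted p = 0.218) were lower in both SCF libraries than in both IL-3 libraries without passing the test. Socs3 differed by 0.31 ± 0.26 (adjusted p = 0.516), and by -0.14 without SCF library 1.

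Adding TGF-β to SCF asks what TGF-β changes in SCF-treated cells. The SCF dose of the combinations is not labelled, so a different SCF dose cannot be told apart from TGF-β. Pim2 and Socs1 fell at both doses of TGF-β, and Pim1 fell at 10 ng/mL. At 1 ng/mL 2 of 7 genes were lower and 0 higher, beside 2.75% and 1.89% of all genes (4.64% in either direction). At 10 ng/mL 3 of 7 were lower and 0 higher, beside 4.59% and 3.78% (8.37% in either direction). Pim2 fell by 2.07 ± 0.43 at 1 ng/mL (4.19-fold, adjusted p = 0.00783) and fell by 2.63 ± 0.47 at 10 ng/mL (6.19-fold, adjusted p = 0.00132). Socs1 fell by 0.86 ± 0.19 (adjusted p = 0.0129) and by 1.06 ± 0.19 (adjusted p = 0.00179). Pim1 differed by -0.66 ± 0.21 at 1 ng/mL (adjusted p = 0.0978, and 0.0209 with the replicate number as a block) and fell by 0.85 ± 0.22 at 10 ng/mL (adjusted p = 0.0203). The other 4 genes did not pass at either dose: Pim3 was at -0.07 ± 0.27 and -0.44 ± 0.28, Cish at 0.15 ± 0.14 and 0.27 ± 0.14, Socs2 at -0.37 ± 0.21 and -0.43 ± 0.21, and Socs3 at 0.38 ± 0.24 and 0.53 ± 0.24. Both doses were compared with the same 2 SCF libraries, so the doses are not independent of each other.

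Several of these calls rested on SCF library 1, which was the higher SCF library for Pim1, Pim2 and Socs1. Without it 0 genes were called at 1 ng/mL (Pim2 at -1.36, adjusted p = 0.217, and Socs1 at -0.61, 0.201) and 1 gene, Socs1, at 10 ng/mL (Pim2 at -1.92, 0.0511, and Pim1 at -0.52, 0.297). At 1 ng/mL 0 genes were also called without library 2 of SCF with 1 ng/mL (Pim2 0.0761, Socs1 0.159). At 10 ng/mL Pim1 lost its call without library 1 (0.0601) or library 2 (0.159) of that group, and in DESeq2 (0.0798). DESeq2 did not call Socs1 at 1 ng/mL (0.0519). In the other direction, Pim1 at 1 ng/mL passed without SCF library 2 (-0.91, 0.0336) and with no filter on low counts (-0.64, 0.0395). Socs1 at 10 ng/mL passed in all 21 alternative fits.

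The 2 doses of TGF-β with SCF were then compared directly. By edgeR 0 of the 7 genes passed, 0 had an unadjusted p under 0.05, and DESeq2 and limma-voom also called 0. Over all genes 0.0178% passed, 0.00889% in each direction. Pim2 was at -0.57 ± 0.60 for 10 against 1 ng/mL (95% interval -1.83 to 0.70), Socs1 at -0.20 ± 0.20 (-0.63 to 0.22), Pim1 at -0.18 ± 0.22 (-0.65 to 0.29) and Socs3 at 0.16 ± 0.23 (-0.33 to 0.65). These intervals leave room for a difference of either sign.

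TGF-β alone against IL-3 used the mean of 2 single libraries, whose spread was taken from the other groups. Pim2 and Socs1 fell, so 2 of 7 genes were lower and 0 higher, beside 2.12% and 1.36% of all genes (3.48% in either direction). Pim2 fell by 1.19 ± 0.28 (2.28-fold, adjusted p = 0.025) and Socs1 by 0.95 ± 0.19 (1.94-fold, adjusted p = 0.00925). Socs2 was at -0.69 ± 0.21 (adjusted p = 0.0989), Pim3 at -0.57 ± 0.26 (0.293), Pim1 at -0.38 ± 0.20 (0.391), Socs3 at -0.41 ± 0.30 (0.57) and Cish at -0.09 ± 0.14 (0.839). Both calls were lost without IL-3 library 1 (Pim2 0.0547, Socs1 0.052), IL-3 library 2 (0.187 and 0.055) or the 10 ng/mL library (0.16 and 0.192). Pim2 was also lost without the 1 ng/mL library (0.096) and in DESeq2 (0.125).

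The comparison of both factors with TGF-β alone asks what SCF, at a dose the labels do not give, adds in TGF-β treated cells. Pim2 and Pim1 fell and Socs3 rose, so 2 of 7 were lower and 1 higher, beside 11.4% and 13.3% of all genes (24.7% in either direction). Pim2 fell by 3.40 ± 0.34 (10.6-fold, adjusted p = 4.2e-06), Pim1 by 1.17 ± 0.18 (2.25-fold, adjusted p = 0.00021), and Socs3 rose by 1.17 ± 0.25 (2.25-fold, adjusted p = 0.00256). These 3 calls held in all 20 alternative fits. Pim3 was at -0.62 ± 0.24 (adjusted p = 0.0702), and passed without library 2 of SCF with 1 ng/mL (0.0436). Socs1 was at -0.42 ± 0.18 (0.0961, and 0.0418 with a replicate block), Socs2 at -0.13 ± 0.20 (0.661) and Cish at -0.01 ± 0.13 (0.965).

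Whether the SCF difference depended on TGF-β was tested as an interaction. Since the SCF dose of the combinations is not labelled, a different SCF dose cannot be told apart from dependence on TGF-β. By edgeR 0 of the 7 genes passed, beside 0.293% of all genes (0.116% higher and 0.178% lower), and DESeq2 and limma-voom also called 0; 2 genes had an unadjusted p under 0.05. For Pim2 the SCF difference was -2.24 without and -3.40 with TGF-β, and the interaction was -1.16 ± 0.47 (95% interval -2.15 to -0.17, unadjusted p = 0.024, adjusted p = 0.446). For Socs3 it was 0.31 without and 1.17 with TGF-β, and the interaction was 0.86 ± 0.36 (0.09 to 1.63, unadjusted p = 0.0303, adjusted p = 0.478). For Socs1 the interaction was -0.01 ± 0.24 (-0.52 to 0.51), and its sign changed between alternatives. So no dependence was established for any of the 7 at this number of libraries.

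**Figure D2:**
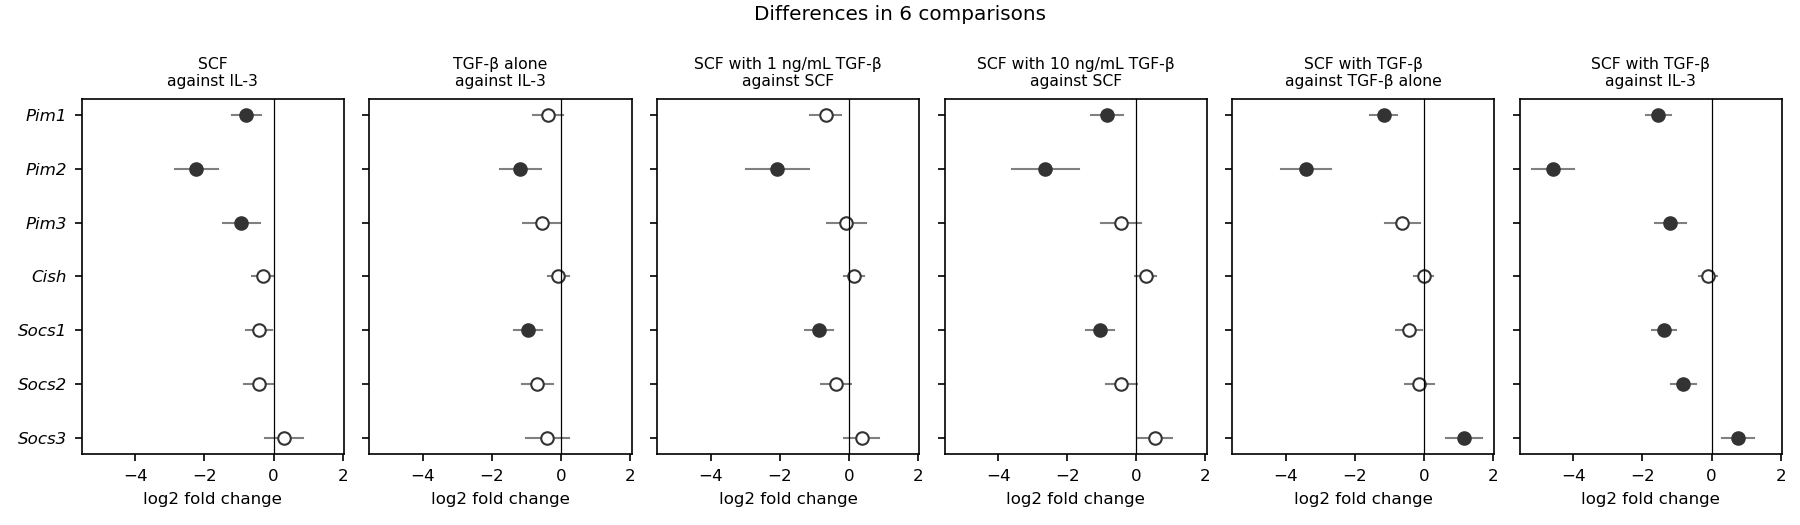
Log2 fold changes of the 7 genes in 6 comparisons, with 95% intervals; filled points passed edgeR's adjusted p of 0.05. Pim2 lies furthest to the left, at -4.59 with both factors against IL-3, Cish stays near 0 and Socs3 lies to the right in the comparisons of SCF with TGF-β.

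Ratios within a library do not depend on the scaling of libraries. They were chosen after the values were seen and carry no test. Pim2 gave 31.7% and 35.5% of the PIM kinase counts in the IL-3 libraries (exact Clopper-Pearson 95% intervals 27.8 to 35.8 and 31.2 to 40.0), and 21.4% and 24.7% with 1 and 10 ng/mL TGF-β alone. Its share was 18.1% and 12.2% with SCF, 7.31% and 3.82% with SCF and 1 ng/mL, and 3.49% (1.29 to 7.44) and 6.61% (2.90 to 12.6) with SCF and 10 ng/mL. In these libraries the Pim2 share was lower with both factors than in IL-3, and Pim1 and Pim3 gave most of the PIM counts there. Socs3 gave 21.3% and 19.7% of the summed Socs1 and Socs3 counts in IL-3, 22.9% and 32.5% with TGF-β alone, and 31.7% and 27.1% with SCF. Its share was 51.5% and 48.3% with SCF and 1 ng/mL, and 56.1% and 56.8% with SCF and 10 ng/mL. Raw counts of Socs1 thus exceeded those of Socs3 in all 6 libraries without both factors, and in 1 of the 4 with both.

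**Figure D3:**
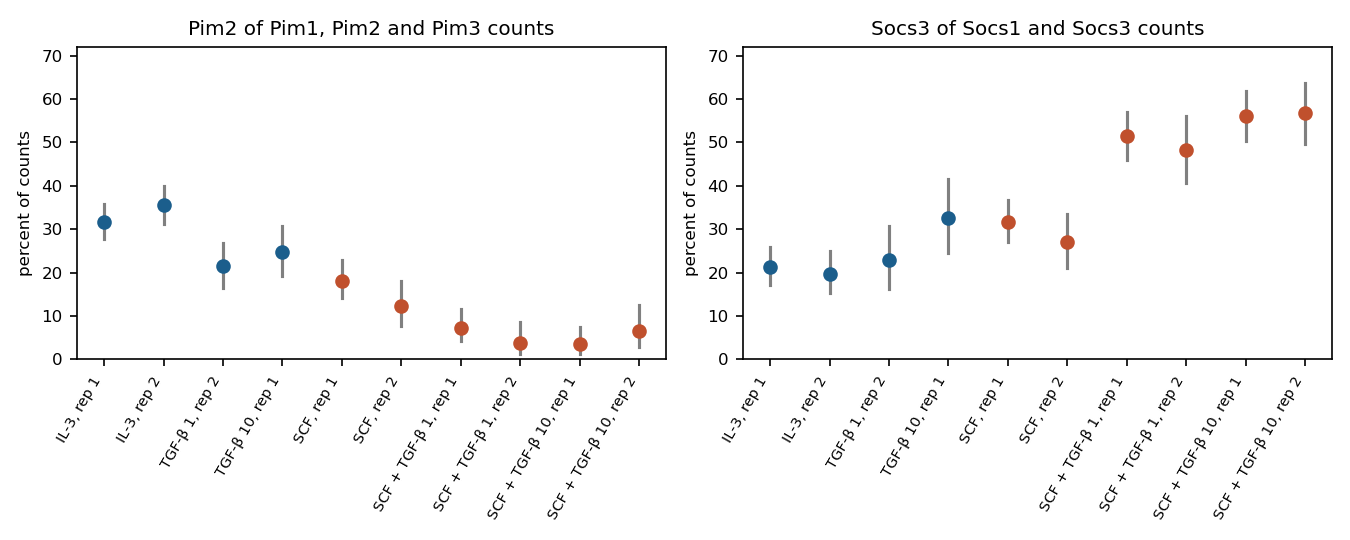
Pim2 as a percent of the counts of the 3 PIM genes, and Socs3 as a percent of the counts of Socs1 and Socs3, in each library, with exact 95% intervals for counting error. The Pim2 share falls from 35.5% to 3.49% between the highest and the lowest library, and the Socs3 share lies at 48.3% or above in the 4 libraries with SCF and TGF-β.

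Other genes of the pathway were followed as 4 lists. Among 17 receptors, JAKs and STATs, 6 fell and 2 rose with both factors against IL-3, beside 11.2% lower and 11.0% higher among all genes, and the list median was -0.16 beside -0.02. Both STAT5 genes were among those that fell, Stat5b by 1.15 ± 0.16 (adjusted p = 4.23e-05) and Stat5a by 0.90 ± 0.15 (adjusted p = 0.000344), beside Stat3, the receptor genes Kit, Il2rg and Csf2rb2. Stat5a stood at 105 and 139.6 CPM in IL-3, 138 and 127 CPM with TGF-β alone, 70.1 and 69.96 CPM with SCF, 75.0 and 61.1 CPM with SCF and 1 ng/mL, and 65.2 and 58.1 CPM with SCF and 10 ng/mL. Its 6 libraries with SCF thus lay below the 4 without, at either dose of TGF-β or none. In SCF against IL-3 Stat5a fell by 0.79 ± 0.18 (adjusted p = 0.0111), Stat5b by 0.71 ± 0.18 (0.022) and Stat3 by 0.88 ± 0.15 (0.00172), beside 3.46% lower among all genes. That count of 3 lower genes was 1 without IL-3 library 2 or without SCF library 2. Jak1, the kinase of many cytokine receptors, rose by 0.50 ± 0.12 with both factors (0.00408) and by 0.90 ± 0.13 with TGF-β alone (0.000542). With both factors against IL-3, DESeq2 and limma-voom each called 1 gene of this list higher, where edgeR called 2. Jak3 rose by 0.65 ± 0.22 (0.0436), and the count of 2 higher genes was 1 without IL-3 library 1, library 2 of SCF with 1 ng/mL or library 1 of SCF with 10 ng/mL, and 0 without IL-3 library 2.

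Of 17 other SOCS genes and brakes on JAK-STAT signalling, 4 fell and 0 rose with both factors against IL-3 (4 had an unadjusted p under 0.05), with a median of -0.06. This share is close to the 22.2% of all genes that passed and is not a result about the list. Ptpn2, a phosphatase that removes phosphate from JAK1, JAK3 and STAT5, stood at 290.2 and 301 CPM in IL-3, 132 and 125 CPM with TGF-β alone, 208 and 190.4 CPM with SCF, 85.5 and 84.3 CPM with SCF and 1 ng/mL, and 67.0 and 67.3 CPM with SCF and 10 ng/mL. No groups overlapped for Ptpn2. It fell by 1.97 ± 0.12 with both factors (adjusted p = 6.27e-09), by 1.20 ± 0.14 with TGF-β alone (9.91e-05) and by 0.57 ± 0.14 with SCF (0.0149). The others were Socs5 (-1.27 ± 0.23), Ptprc, which encodes the phosphatase CD45 (-0.54 ± 0.12), and Ptpn6, which encodes SHP-1 (-0.49 ± 0.13). Without IL-3 library 2 the count of lower genes was 2.

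Of 13 other STAT5 target genes 2 fell and 1 rose with both factors, with a median of 0.22. This share too is close to the 22.2% of all genes. Il2ra, the alpha chain of the interleukin 2 receptor, stood at 63.7 and 49.8 CPM in IL-3, 27.2 and 21.8 CPM with TGF-β alone, 26.0 and 22.1 CPM with SCF, 7.58 and 6.53 CPM with SCF and 1 ng/mL, and 3.58 and 6.52 CPM with SCF and 10 ng/mL. Like Pim2 it was highest in IL-3 and lowest with both factors, and it fell by 3.25 ± 0.25 (adjusted p = 8.7e-08). The cytokine gene Osm fell by 1.13 ± 0.18 (0.000198), and Myc rose by 0.61 ± 0.15 (0.00657), the latter not without IL-3 library 2, where the count of higher genes was 0. Ccnd2, which encodes cyclin D2, went the other way from Pim2 with SCF: it rose by 1.05 ± 0.15 in SCF against IL-3 (0.000282) and fell by 0.84 ± 0.14 with 10 ng/mL TGF-β added to SCF (0.00111).

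Of 11 genes for substrates of PIM kinases 3 rose and 1 fell with both factors, beside 11.0% higher and 11.2% lower among all genes, with a median of 0.42. Those that rose were Cdc25c, a phosphatase of the cell cycle (2.08 ± 0.49), and the translation genes Eif4ebp1 (1.02 ± 0.27) and Eif4b (0.72 ± 0.14). Cdc25c stood at only 11.4 and 0 CPM in the IL-3 libraries, and DESeq2 called 1 gene of the list higher. Cdkn1b, the cell cycle inhibitor p27, stood at 19.7 and 41.4 CPM in IL-3 and at 8.90 to 22.8 CPM with both factors, so these libraries overlapped. It fell by 1.01 ± 0.34 (edgeR adjusted p = 0.0442), a call that neither DESeq2 nor limma-voom made. That call was lost without IL-3 library 2, library 2 of SCF with 1 ng/mL or library 2 of SCF with 10 ng/mL, and 2 genes were lower without IL-3 library 1. Of 12 immediate early genes tested, 4 fell (Zfp36, Dusp1, Btg2 and Ier3) and Jun rose with both factors, beside the same 11.2% and 11.0% of all genes, with a median of -0.59. Without library 1 of SCF with 10 ng/mL 7 were lower, and without IL-3 library 2 the rise of Jun was not called. Over all comparisons, of 31 list counts of 1 to 3 genes, 22 moved by over 1.5 times without 1 library and 17 of those went to 0.

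**Figure D4:**
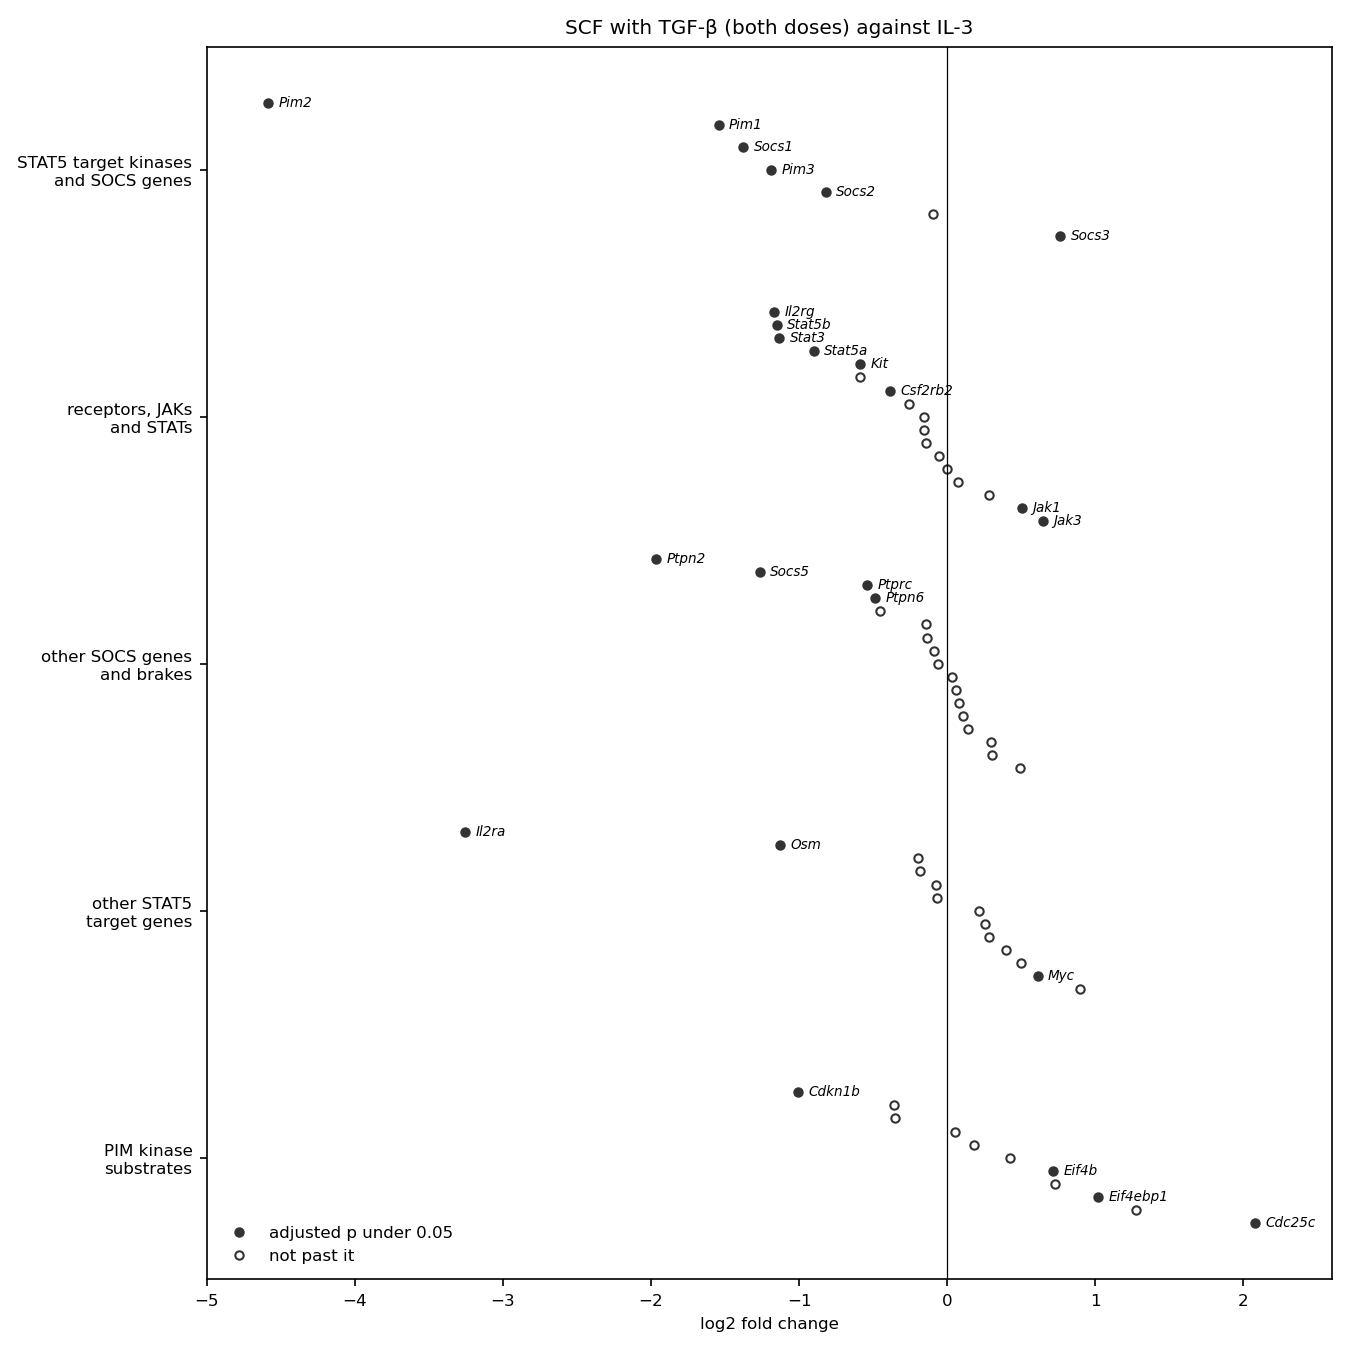
Log2 fold changes with both SCF and TGF-β against IL-3 for the 7 genes and the 4 pathway lists; each point is a gene and filled points passed edgeR's adjusted p of 0.05. Pim2 at -4.59 and Il2ra at -3.25 are the lowest points, and Cdc25c at 2.08 is the highest filled one.

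The profile over the 6 group means was compared between each gene that passed a test and 6082 genes with at least 20 CPM, as the root-mean-square (RMS) distance of centred log2 levels. Nearest to Pim2 was Jaml, which encodes a junction adhesion molecule, at a distance of 0.21 log2 units beside a Pim2 range of 4.71. Jaml averaged 73.5 CPM in IL-3, 18.5 CPM with SCF, and 3.97 and 4.34 CPM with SCF and 1 or 10 ng/mL TGF-β. The next were Pigz (0.50) and Gstm1 (0.50). Nearest to Pim1 were Usp18 (0.08), Itm2c (0.11) and Pla2g7 (0.11), to Pim3 Ccnj (0.08), Ctdsp1 (0.13) and Lmo4 (0.13), and to Socs1 Pcyt1a (0.11), Selenow (0.12) and Fam213a (0.13). Nearest to Socs2 were Fosl2 (0.05), Akr1c13 (0.06) and Dapp1 (0.07), and Myc (0.08) and Cdkn2d (0.08) were among those nearest to Socs3. Among the 7 genes themselves Socs1 and Socs2 were closest (0.24) and Pim2 and Socs3 farthest apart (2.15). Genes with a small range have many near neighbours, so these distances describe 6 points and no more.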

How the data were processed

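The deposited table gave read counts, which the authors made from full-length SmartSeq2 cDNA libraries, per the labels' protocols. STAR, HTSeq and DESeq2 with GRCm38 (mm10) are named in the submitters' processing notes without versions, and neither annotation nor strand setting is stated. The table held 49671 genes and 5 entries that named no gene, which took 73.4% to 83.6% of each library and were left out. The share counted to genes was 23% and 19.9% in IL-3, and 16.4% and 20.5% with 1 and 10 ng/mL TGF-β alone. With SCF, with or without TGF-β, it was 23.2% to 26.6%, so it was higher in every library with SCF. The part of this in the results was not tested. Symbols for 49412 genes and the loci came from GENCODE vM21. Depth ran from 1237382 to 2323916 gene counts per library. A chi-square comparison of libraries within a group gave 3.44 to 4.51 per gene, where counting error alone gives 1, so no pair agreed within sampling noise; this does not show that they are biological replicates.

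Counts were fitted with edgeR 4.0.16 in R 4.3.3 using TMM, filterByExpr and the quasi-likelihood F test. The model had 1 mean for each of 6 groups over 10 libraries and 4 residual degrees of freedom. The test adds degrees of freedom from the spread shared between genes, and p-values and intervals use that total. The threshold was an adjusted p of 0.05 (Benjamini-Hochberg over 11247 genes) in each of 8 comparisons, which share groups. SDs are over libraries, a ± on a log2 difference is a standard error (the difference divided by the square root of F), and intervals are at 95%. Profiles used log2(CPM + 0.5). The fit was tested on simulated data for SCF against IL-3 only, with the same spread for all genes. That was no test of the other comparisons or of genes with few counts. The labels do not say that a replicate number marks a shared culture or day. Library 1 minus library 2 differences over 11247 genes correlated at 0.18 to 0.21 between the 3 SCF groups and at -0.01 to 0.02 between IL-3 and these, and could not be had for TGF-β alone, so same-numbered libraries deviated together within the SCF groups and not with IL-3.

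The members and gene lists were chosen with earlier results of these data known. Named genes were the 7 members, up to 3 called genes per list and comparison by adjusted p, and the 3 nearest profiles of each called member; others are named where a short count was spelled out, after their values were seen. Some genes that these rules select are not reported here. Beside the lists in the report, markers were summed for basophils (456 to 702 CPM, mostly Cd200r3), neutrophils (0 to 1.7 CPM), eosinophils (0 to 10.1 CPM), lymphocytes (0 to 12.5 CPM), erythroid cells and platelets (1320 to 1840 CPM, mostly Itga2b, with Pf4 and Ppbp at 0) and fibroblasts (0 to 3.89 CPM). Alternatives were the size factors and Wald test of DESeq2 1.42.0, limma-voom (limma 3.58.1), no filter, a filter of 10 CPM in 2 libraries, leaving out 365 loci that overlap ribosomal RNA, only the groups compared, a replicate block and each library left out. Fits without the TGF-β alone libraries, and without the first or the second libraries of the SCF groups, were chosen after seeing the data.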

Additional observations from a re-analysis of the deposited data

How the results depend on the processing

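Depth limits Pim2 most, with 5 to 16 counts in the libraries with both factors. Each gene has 4 residual degrees of freedom of its own, so every test leans on spread shared between genes. The count of the 7 genes called ranged, when 1 library was left out, from 1 to 3 in SCF against IL-3, from 0 to 3 for 1 ng/mL TGF-β added to SCF, from 1 to 3 for 10 ng/mL and from 0 to 2 for TGF-β alone. The DESeq2 Wald test called 1 gene for 1 ng/mL TGF-β added to SCF and 1 for TGF-β alone. Without the second libraries of the SCF groups 1 gene was called in SCF against IL-3, and without the first libraries 1 at each dose of TGF-β added to SCF; both alternatives were chosen after seeing the data.

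With a replicate block edgeR called 3 of the 7 genes in SCF against IL-3, 3 and 3 for 1 and 10 ng/mL TGF-β added to SCF, 0 for the doses, 3 for TGF-β alone, 4 for SCF added to TGF-β, 0 for the interaction and 6 for both factors against IL-3. The additional calls were Pim1 at 1 ng/mL (-0.66, adjusted p = 0.0209), Socs2 with TGF-β alone (-0.68, 0.0475) and Socs1 for SCF added to TGF-β (-0.44, 0.0418). Over all genes the block raised the count from 522 to 859 at 1 ng/mL, from 391 to 718 for TGF-β alone, from 33 to 102 for the interaction and from 2 to 5 for the doses. The DESeq2 Wald test called 471 genes in place of 1031 in SCF against IL-3, 270 in place of 522 and 438 in place of 941 for TGF-β added to SCF, 225 in place of 391 for TGF-β alone, 1518 in place of 2780 for SCF added to TGF-β, 1379 in place of 2499 for both factors, and 0 in place of 2 for the doses. With 1 library left out these counts over all genes ran from 237 to 1055, 252 to 540, 447 to 952, 143 to 442, 1278 to 2799, 1308 to 2523 and 0 to 5 in the same order, and from 0 to 30 for the interaction. With no filter 125 genes passed for the interaction and 8 for the doses, and with only the groups compared 712 passed for TGF-β alone. Without the second libraries 594, 289, 559 and 683 genes passed in SCF against IL-3, at 1 and 10 ng/mL added to SCF and for TGF-β alone, and 69 for the interaction. Without the first libraries 326 and 454 passed at the doses added to SCF, 707 for TGF-β alone and 87 for the interaction. The cause of these differences was not tested.

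Of 1147 alternative values of the 56 differences, 32 changed sign, in 13 results of which none had passed the test. With 1 library left out, Socs3 ran from -0.14 to 0.63 in SCF against IL-3, and Pim3 from -0.341 to 0.22 for 1 ng/mL added to SCF. For 10 against 1 ng/mL Pim1 ran from -0.408 to 0.12, Pim2 from -0.953 to 0.199, Socs1 from -0.367 to 0.008, Socs2 from -0.150 to 0.034 and Socs3 from -0.081 to 0.478. Cish ran from -0.233 to 0.047 for TGF-β alone, from -0.229 to 0.054 for both factors against IL-3 and from -0.063 to 0.042 for both against TGF-β alone, where Socs2 ran from -0.284 to 0.016. The interaction of Socs1 ran from -0.242 to 0.241. Without the first libraries Socs3 was -0.142 in SCF against IL-3, Pim3 0.264 for 1 ng/mL added to SCF, Pim2 0.538 and Socs2 0.022 for the doses, and the Socs1 interaction 0.050. Without the second libraries Pim3 was 0.023 for the doses and Cish 0.092 for both factors against TGF-β alone. With no filter the latter was 0.027 and the Socs1 interaction 0.016, which was 0.001 with DESeq2 size factors and with the Wald test. Loci that overlap satellite repeats were not left out as planned, since no repeat annotation was used here.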
